A study of Mus musculus with 8 samples.

Results

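The regions described here are 392 of the 11251 regions (3.48%) in which acetylation of histone H3 at lysine 9 (H3K9ac) was measured, and each is annotated as the promoter of a non-coding RefSeq transcript. They were taken from the annotation alone, without use of any measured value, and 42 regions whose nearest gene carries a microRNA name were left out. The study profiled H3K9ac by chromatin immunoprecipitation and sequencing in ileal epithelial cells of wild-type C57Bl/6 mice. One group of mice had received butyrate (150 mM) for 7 days and the other had received vehicle, with 3 H3K9ac libraries in each group, and the strain, genotype and tissue were common to both. There was 1 input library for each treatment, and these 2 are not used here. Whether the libraries of a group were made from different mice is not stated, and p-values below measure only the spread between libraries, which may be technical.

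H3K9ac marks the nucleosomes beside active start sites, and acetyl groups on histones are removed by histone deacetylases, which butyrate, a fatty acid made by gut bacteria, inhibits. Many promoters fire in both directions, so that a long non-coding RNA and a messenger RNA start back to back from a shared open stretch of DNA. Other non-coding transcripts start inside a coding gene on the opposite strand, are spliced variants of a coding gene, are processed into small nuclear or nucleolar RNAs, or have a promoter of their own.

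The label of non-coding promoter held only in part. The 392 regions carried 389 distinct transcripts. By transcript type, 273 regions belonged to long non-coding RNAs in RefSeq and 83 to RefSeq's general transcript type. Another 19 belonged to small nucleolar RNAs, 4 to small nuclear RNAs, 2 to guide RNAs and 1 to the RNA of RNase MRP. For 1 region the transcript had no entry in the annotation used. The other 9 belonged to microRNA precursors whose nearest gene has another name. The nearest gene was the transcript's own gene in 211 regions and another gene in 181, and it was protein-coding in 218. A protein-coding start site lay inside 252 of the 392 regions (64.3%), compared with 2134 of the 2676 regions (79.7%) annotated as promoters of coding transcripts. Over all 11251 regions the share was 65.5%, near that of the members. Signal at these regions can therefore not be assigned to the non-coding start alone.

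By the strand and place of the nearest curated coding start, 153 regions were divergent, with the coding gene starting upstream on the opposite strand. In 62 regions the coding gene started downstream of the non-coding start on the opposite strand, called antisense overlap here. Only start sites were compared, and not how far the non-coding transcript reaches. A further 60 regions belonged to non-coding variants of coding genes, 35 to small RNAs, and 78 were stand-alone, with no coding start in the region or within 1000 bp of the non-coding start. One region, at A530013C23Rik near Cebpb, had a coding start on the same strand, and 3 could not be placed. The median distance between the start sites of divergent pairs was 129 bp, with quartiles of 80 and 211 bp and a range of 9 to 730 bp. In the antisense overlaps the median was 274 bp, with a range of 6 to 1083 bp. The plot of start site spacing shows a narrow peak for divergent pairs and a broad spread for overlapping ones.

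**Figure D1:**
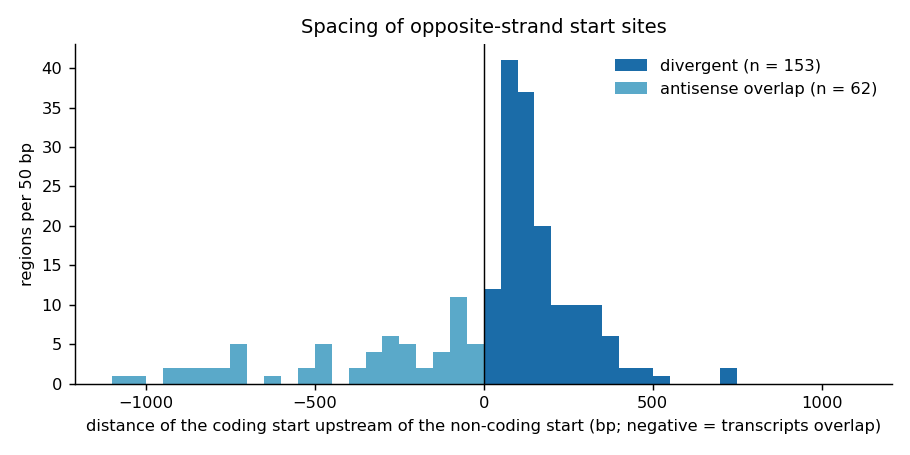
Distance in bp from the non-coding start to the opposite-strand coding start, in bins along the x axis, with the number of regions per bin on the y axis. Divergent pairs (n = 153, right of 0) crowd around their median of 129 bp, and antisense overlaps (n = 62, left of 0) reach 1083 bp.

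Promoter windows of 300 bases, from 250 before to 50 after the start, were found in RefSeq (build GRCm38.p6) for 273 of the 392 regions. The 5 windows shown here belong to the region with the highest H3K9ac, to 2 regions with the smallest p in their class or direction, to the lowest region and, for Flvcr1, to the coding gene that starts inside the A230020J21Rik region. Capitals mark CpG dinucleotides, and the start site is base 251 of each window. The first lies at chr11:105181384-105181683, minus strand, and its divergent partner Tlk2 starts at base 157. The others lie, in the order printed, at chr1:191026141-191026440 (minus strand), chr13:41001097-41001396 (minus strand), chr15:85703523-85703822 (plus strand) and chr15:82252222-82252521 (plus strand).
1700052K11Rik: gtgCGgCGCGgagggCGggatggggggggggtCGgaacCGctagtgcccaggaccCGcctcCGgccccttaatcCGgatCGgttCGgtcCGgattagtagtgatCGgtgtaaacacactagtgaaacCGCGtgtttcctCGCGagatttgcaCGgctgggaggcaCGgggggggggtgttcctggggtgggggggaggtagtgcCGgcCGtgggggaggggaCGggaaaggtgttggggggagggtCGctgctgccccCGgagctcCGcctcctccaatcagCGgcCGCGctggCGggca
Flvcr1: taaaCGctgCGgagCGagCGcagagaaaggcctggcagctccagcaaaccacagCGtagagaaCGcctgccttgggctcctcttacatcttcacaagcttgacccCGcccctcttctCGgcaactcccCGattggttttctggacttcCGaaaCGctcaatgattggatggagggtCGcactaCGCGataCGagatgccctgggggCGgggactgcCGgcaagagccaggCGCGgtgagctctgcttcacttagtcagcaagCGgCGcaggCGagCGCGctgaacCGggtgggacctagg
A730081D07Rik: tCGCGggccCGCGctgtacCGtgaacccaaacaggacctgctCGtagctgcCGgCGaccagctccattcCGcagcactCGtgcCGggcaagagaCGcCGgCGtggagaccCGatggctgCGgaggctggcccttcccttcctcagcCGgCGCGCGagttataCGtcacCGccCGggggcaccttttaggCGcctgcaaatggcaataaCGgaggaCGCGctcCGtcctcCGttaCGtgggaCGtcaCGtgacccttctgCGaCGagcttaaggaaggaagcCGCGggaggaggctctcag
Lncppara: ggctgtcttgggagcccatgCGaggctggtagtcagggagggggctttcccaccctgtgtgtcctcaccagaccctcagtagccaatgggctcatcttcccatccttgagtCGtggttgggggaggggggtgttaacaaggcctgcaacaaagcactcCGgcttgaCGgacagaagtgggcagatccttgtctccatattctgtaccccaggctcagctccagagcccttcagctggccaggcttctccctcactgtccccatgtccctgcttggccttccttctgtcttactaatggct
1500009C09Rik: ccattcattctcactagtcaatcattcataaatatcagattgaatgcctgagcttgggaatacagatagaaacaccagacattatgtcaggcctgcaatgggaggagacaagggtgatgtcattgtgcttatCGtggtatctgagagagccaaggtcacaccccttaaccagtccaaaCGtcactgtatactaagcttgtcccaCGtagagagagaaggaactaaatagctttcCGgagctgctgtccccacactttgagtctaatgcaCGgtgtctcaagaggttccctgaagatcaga

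These windows held 29 CpGs at 1700052K11Rik, 25 at Flvcr1, 36 at A730081D07Rik, 4 at Lncppara and 5 at 1500009C09Rik. The median was 25 over the 273 windows, 30 over the 121 divergent ones and 8 over the 53 stand-alone ones. For comparison it was 22 over 3044 windows of genes at coding promoter regions and 7 over all 32851 windows. The 3044, called coding promoters in the shares below, are every window of those genes, whether or not its start lies in a region. Member windows were matched to the annotated start. Besides the divergent and stand-alone windows, 49 were of antisense overlaps and 49 of variants. The small RNA class is thus nearly absent from the values given for member windows. The GC box (GGGCGG, the core bound by SP factors, either strand) was found in 67.0% of the member windows. It was found in 79.3% of the divergent and 41.5% of the stand-alone windows, in 61.8% at coding promoters and in 35.7% of all windows. The ETS core (CGGAAG) was found in 32.6% of member windows, in 33.5% at coding promoters and in 16.9% of all windows. The core of the cyclic AMP response element (TGACGT) was found in 16.5% of member windows, in 366 of the 3044 windows at coding promoters and in 7.51% of all windows. The TATA box (TATAAA) was found in 4.76% of member windows, in 1.65% of divergent and 13.2% of stand-alone windows, in 6.01% at coding promoters and in 13.6% of all windows. The CCAAT box (CCAAT) was found in 36.3% of member windows, in 34.6% at coding promoters and in 37.4% of all windows. The E box (CACGTG) was found in 9.89% of member windows, in 8.90% at coding promoters and in 7.15% of all windows. The AP-1 site (TGANTCA) was found in 5.13% of member windows, in 4.63% at coding promoters and in 7.81% of all windows. The GC box, the ETS core, the response element core and the E box each contain a CpG, and the windows differ in CpG number as given above. A match is a description and not a bound site.

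H3K9ac density is given in RPKM, that is read number divided by region length and library depth. The inputs were not used here and how regions were called is not given, so levels are compared between regions only as descriptions. Over the 6 libraries the median member had 3.28 RPKM, with quartiles of 2.37 and 4.26, compared with 3.08 RPKM for coding promoters and 3.09 RPKM for all regions. The medians of the members were 3.30, 3.21 and 3.26 RPKM in the butyrate libraries and 3.36, 3.33 and 3.29 RPKM in the vehicle libraries. The classes differed more than the libraries did. The divergent regions had a median of 3.87 RPKM, the antisense overlaps 3.80, the small RNAs 3.12, the variants 2.97 and the stand-alone regions 1.71. Stand-alone medians were 1.73, 1.79 and 1.58 RPKM in the butyrate libraries and 1.81, 1.94 and 1.74 RPKM in the vehicle libraries. Divergent medians were 3.62, 3.75 and 3.93 RPKM with butyrate and 3.79, 3.75 and 3.58 RPKM with vehicle. Thus the stand-alone median was below the divergent median in each of the 6 libraries. These are descriptions, since regions of 1 library are not replicates of a condition.

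**Figure D2:**
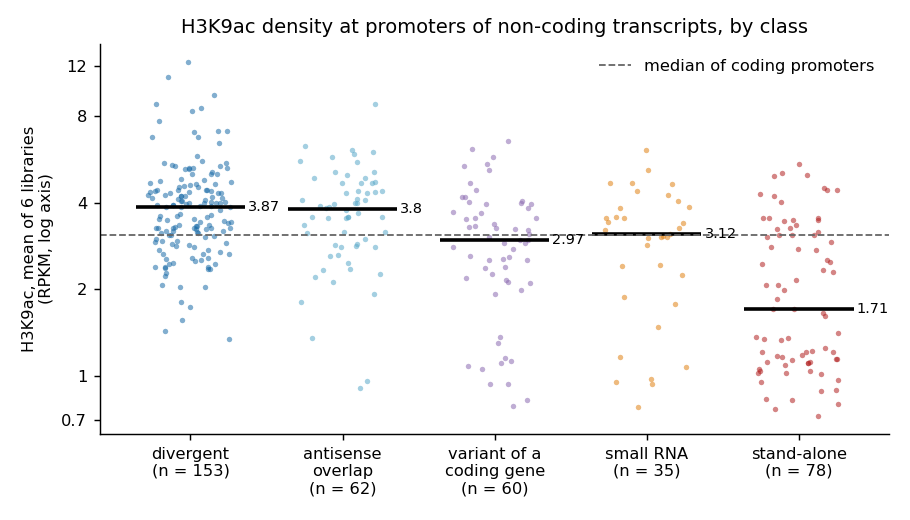
Mean H3K9ac density of each region over 6 libraries (RPKM, log axis) by class. Each point is a region, black bars are class medians with their values, and the dashed line is the median of coding promoters (3.08 RPKM). Stand-alone regions fall into a lower and a higher group of points, and the divergent class reaches the highest values.

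The regions with a coding start were also the longer ones. Length enters the class rule, since a coding start anywhere in a region takes it out of the stand-alone class. Median length was 2112 bp in the divergent class and 768.5 bp in the stand-alone class, where 25 of 78 regions (32.1%) had the smallest length in the table, 500 bp. Across all members the non-coding start itself lay inside the region in 287 cases, with a median of 3.56 RPKM, and outside it in 102 cases, with a median of 1.96 RPKM. CpG content was likewise highest in the divergent and lowest in the stand-alone class, and the other classes lay close together. The ratio of observed to expected CpG in the region had a median of 0.698 in the divergent, 0.631 in the antisense overlap, 0.637 in the variant, 0.617 in the small RNA and 0.347 in the stand-alone class. Across the 392 members Spearman's rho with mean RPKM was 0.54 for this ratio, 0.56 for GC content and 0.55 for length. The same rho values over the 2676 coding promoters were 0.51, 0.59 and 0.56. They are across regions that share libraries and base composition, and no p is given. Within the stand-alone class rho with the CpG ratio was 0.65, and within the divergent class, where few regions were CpG-poor, it was 0.27.

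**Figure D3:**
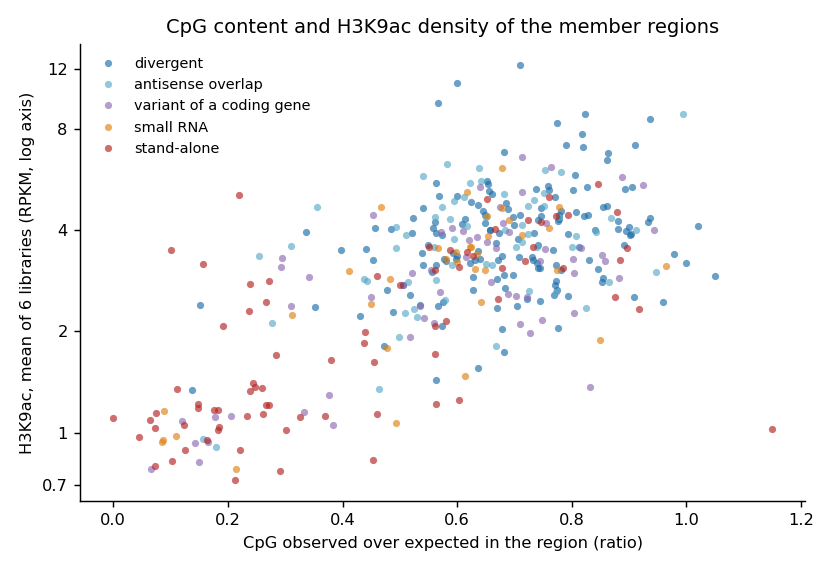
Observed over expected CpG of each region (x axis, ratio) and its mean H3K9ac density (y axis, RPKM, log axis), coloured by class. CpG-poor stand-alone regions gather near 1 RPKM, and most divergent regions lie above a ratio of 0.5 and 2 RPKM.

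The 10 highest densities were, with 1 exception, at divergent promoters. The region of 1700052K11Rik on chromosome 11, shared with Tlk2, a kinase of chromatin assembly, had 13.6, 13.1 and 12.1 RPKM in the butyrate libraries and 11.5, 11.4 and 12.5 RPKM in the vehicle libraries. The 2 groups overlapped there (log2 fold change 0.12 ± 0.06 (SE), limma adjusted p = 0.70). Ino80dos, which faces Ino80d, a subunit of a chromatin remodelling complex, had 12.3, 10.5 and 11.02 RPKM with butyrate and 10.2, 10.2 and 11.3 RPKM with vehicle. The next in order of mean level were 0610009L18Rik at Actg1, a cytoplasmic actin, with a mean of 9.06 ± 1.00 RPKM with butyrate and 9.93 ± 0.46 RPKM with vehicle (SD, n = 3 each), and Gm10638, an antisense overlap at the ubiquitin ligase gene Siah1a, with 8.74 ± 0.80 and 8.93 ± 0.21 RPKM in the same order. The rest of the 10 highest were Gm20337 at the splicing factor Srsf5, 4930465K10Rik at 8030462N17Rik, 4930413G21Rik at Rbbp6, 4930539J05Rik at the ubiquitin-conjugating enzyme Ube2d3, 2810013P06Rik at the chromatin regulator Ankrd11 and Gm4285 at Tpt1. Only Gm10638 among the 10 was not divergent.

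Stand-alone regions could also be strongly acetylated. B330016D10Rik had a mean of 5.46 RPKM with a CpG ratio of 0.846, and 2310016G11Rik had 5.09 RPKM with a CpG ratio of 0.220; both were picked after their values were seen, as the highest of the class. At the other end, 1500009C09Rik had 0.811, 0.893 and 1.24 RPKM in the butyrate libraries and 0.465, 0.448 and 0.484 RPKM in the vehicle libraries, on a mean of 7.67 reads per library. The groups did not overlap there, but it was 1 of the 19 members under the mean of 1 RPKM needed for the test. Also among the 5 lowest were 1700016G22Rik, Snora69, Sqor, whose coding transcripts make a mitochondrial sulfide-oxidising enzyme, and Gm4432. The lowest regions did not share a direction: Gm4432 had 0.507 ± 0.052 RPKM with butyrate and 1.09 ± 0.03 RPKM with vehicle (SD, n = 3 each).

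The longest region, 11752 bp, held the start of Gata6os and of Gata6, a transcription factor of the gut epithelium. It had 4.42, 4.90 and 4.88 RPKM with butyrate and 5.27, 4.83 and 5.03 RPKM with vehicle, and the groups overlapped. The second, 8197 bp at Brd2, a reader of acetylated histones, had 5.15, 4.69 and 5.34 RPKM with butyrate and 5.57, 5.80 and 5.53 RPKM with vehicle. All butyrate libraries were below all vehicle libraries at Brd2, with a log2 fold change of -0.13 ± 0.08 (SE, limma adjusted p = 0.74). The third, 7271 bp, held Zfas1, a host of small nucleolar RNAs that starts beside Znfx1.

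Butyrate and vehicle were compared with limma on log2(RPKM + 1), with p-values adjusted over all 10529 regions tested. The added 1 RPKM shrinks all fold changes on this scale, and most of all those of weakly acetylated regions. Of the 373 members tested, 0 had an adjusted p under 0.05, as did 0.0% of all regions, and the smallest adjusted p among the members was 0.49. The reads recovered from the RPKM values, fitted with limma's voom on all regions, gave 0 members, against 0.142% of all regions. An unadjusted p under 0.05 was found at 11 members higher and 12 lower with butyrate, together 6.17%. Over all regions these shares were 3.35% higher and 3.91% lower, together 7.27%, so the members' share was near the background. All libraries of one group lay beyond all of the other at 20 members higher and 28 lower with butyrate, 12.9% in all, where all regions had 6.11% higher and 6.85% lower. Log2 fold changes were positive at 186 members and negative at 187, with a median of -0.0002. On this scale 0 tested members differed by over 1.5-fold, against 33 of the 10529 regions tested. Without the added 1 RPKM some did, such as 8030442B05Rik with a butyrate to vehicle ratio of 1.78 and Lncppara with 0.619. The unadjusted 95% interval of a region reached a median of 0.25 to either side of the log2 fold change, and 0.34 in the stand-alone class. Differences larger than these could still go uncalled after adjustment over all regions. Libraries were scaled to nearly equal sums, and a change shared by all regions could not be seen either. Fewer acetylated cells and less acetylation per cell cannot be told apart in these samples.

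**Figure D4:**
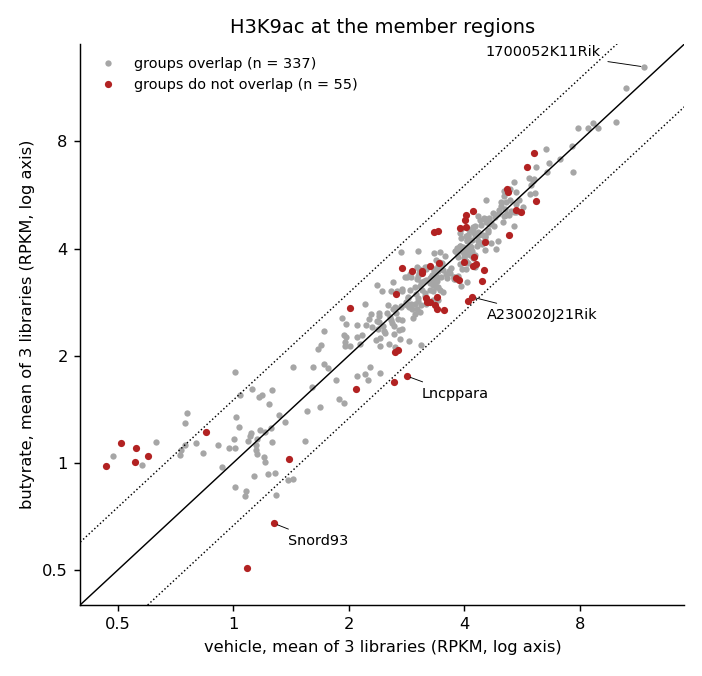
Mean H3K9ac density of each member with butyrate (y axis) and with vehicle (x axis), in RPKM on log axes; the solid line is equality and the dotted lines are 1.5-fold differences in RPKM. Red points are members whose 3 libraries per group do not overlap, including those under the test's minimum level, and most points lie between the dotted lines.

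The authors' deposited table called 1 member at its false discovery rate of 0.1, A230020J21Rik, against 0.249% of all regions. This long non-coding transcript is an antisense overlap at Flvcr1, a membrane transporter first described for heme, with the start sites 839 bp apart. The region, at chr1:191024379-191026239 (mm10), had 3.10, 2.82 and 2.84 RPKM in the butyrate libraries, against 4.42, 4.16 and 4.03 RPKM in the vehicle libraries. Every butyrate library was below every vehicle library, on a mean of 141 reads. On the log2(RPKM + 1) scale the log2 fold change was -0.41 ± 0.10 (SE) with a 95% interval of -0.62 to -0.20. The adjusted p by limma was 0.49 (0.0010 before adjustment). With voom on all regions, which does not add 1 RPKM, the log2 fold change was -0.525 and the adjusted p was 0.097. The authors' deposited table gives a log2 fold change of -0.525 and a false discovery rate of 0.0332. Whichever library was left out, the unadjusted limma p lay between 0.0017 and 0.0065. Over the alternative fits the adjusted p reached 0.67. The region was picked for a small p in the same libraries, so this range is no separate support.

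None of the other differences passed any test used here, and those with the smallest p are given as values. Among members with higher values in butyrate libraries, A730081D07Rik is an antisense overlap at Pak1ip1, which acts in ribosome assembly. It had 4.72, 3.85 and 4.75 RPKM with butyrate and 3.39, 3.10 and 3.54 RPKM with vehicle, with a log2 difference of 0.32 ± 0.10 (SE, limma adjusted p = 0.57). The 1700112J16Rik region, divergent from Lysmd4, had 4.26, 5.06 and 4.12 RPKM with butyrate and 3.65, 3.404 and 3.20 RPKM with vehicle. The groups did not overlap at either region. A930007I19Rik, divergent from Ric1, whose product acts in traffic through the Golgi, had 7.64, 6.60 and 8.002 RPKM with butyrate and 6.03, 5.90 and 6.36 RPKM with vehicle. The stand-alone region of 9430091E24Rik had 4.84, 5.33 and 4.77 RPKM with butyrate and 3.95, 3.98 and 4.20 RPKM with vehicle. The remaining 4 of the 8 with the smallest p in this direction were 1700003D09Rik at Stard3, a cholesterol carrier of late endosomes, A930005H10Rik at Dph5, an enzyme of diphthamide synthesis, 8030442B05Rik and Gm20036 at the Golgi protein gene Trip11. Their log2 differences were 0.28, 0.31, 0.47 and 0.19, and at 8030442B05Rik the groups overlapped.

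In the other direction, AF357399, a small nucleolar RNA inside the ribosomal protein gene Rps16, had 3.19, 3.08 and 3.44 RPKM with butyrate and 3.94, 4.42 and 5.02 RPKM with vehicle. The log2 difference was -0.36 ± 0.10 (SE, limma adjusted p = 0.57). No butyrate library reached the lowest vehicle library at this region. Lncppara, a stand-alone region with a CpG ratio of 0.237, had 1.58, 1.34 and 2.34 RPKM with butyrate and 2.85, 2.42 and 3.25 RPKM with vehicle. Its log2 difference of -0.49 ± 0.15 (SE) rested on a mean of 30.8 reads, and its start site lay outside the region. Non-coding variants of Slco4a1, an organic anion transporter, and of Adck5 differed by -0.43 and -0.31. The others named in this direction were 1110006O24Rik at Rab35, a GTPase of endosome recycling, and 2810013P06Rik at Ankrd11, with -0.30 and -0.20. Of the 15 members named in the 2 directions, the groups overlapped at 8030442B05Rik and 2810013P06Rik. All 15 kept their sign whichever library was left out, which could not be otherwise where the groups did not overlap.

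**Figure D5:**
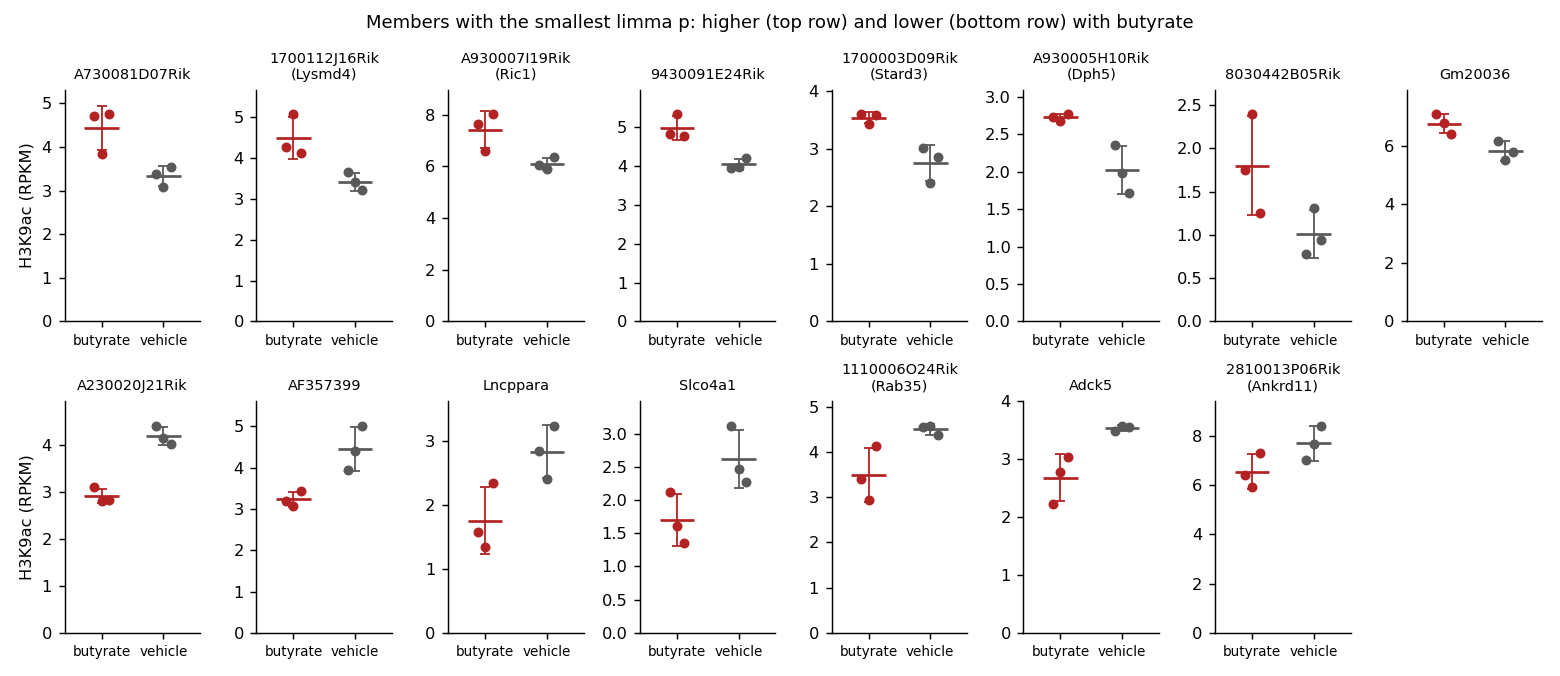
H3K9ac density (RPKM) in each of the 3 butyrate libraries (red) and 3 vehicle libraries (grey) for 15 of the members with the smallest limma p, with the nearest gene in brackets where its name differs. Horizontal bars are means and error bars SD; the upper row is higher and the lower row lower with butyrate, and no panel passed the adjusted threshold of 0.05.

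Among the small RNA genes, 25 members had names of nucleolar, Cajal body, nuclear or RNase MRP RNAs, and 21 were tested. Of these 10 were positive and 11 negative, with a median of -0.02, and 1 had an unadjusted p under 0.05. That was Snord104, with 2.79, 2.96 and 2.36 RPKM with butyrate and 3.60, 3.29 and 3.30 RPKM with vehicle. Snord15a, inside Rps3, had 2.74, 2.80 and 2.78 RPKM with butyrate and 3.395, 3.366 and 3.33 RPKM with vehicle, and the groups did not overlap. Its log2 difference was -0.21 ± 0.10 (SE, limma adjusted p = 0.70). Small nucleolar RNAs are often cut from introns of genes for ribosome parts. In the wider small RNA class of 35 regions, which also holds AF357399, 9 regions held the start of such a gene. This subset was put together after the values were seen. It held mean levels of 2.85 to 4.27 RPKM, with 2 positive and 7 negative differences, 1 of them (AF357399) at an unadjusted p under 0.05, and a median log2 difference of -0.11. Snord93, under the test's minimum level, had 0.747, 0.780 and 0.504 RPKM with butyrate and 1.35, 1.17 and 1.31 RPKM with vehicle. Rnu12, an RNA of the minor spliceosome that faces Poldip3, was at 4.46 ± 0.49 RPKM with butyrate and 4.36 ± 0.30 RPKM with vehicle (SD, n = 3 each). Rmrp, the RNA of RNase MRP, was at 2.51 ± 0.52 RPKM with butyrate and 2.37 ± 0.43 RPKM with vehicle. Scarna2, a guide RNA of Cajal bodies, was the highest of the list at 6.17 ± 0.65 RPKM with butyrate and 6.06 ± 0.21 RPKM with vehicle. At Rnu12, Rmrp and Scarna2 the means differed by less than the SD of the butyrate libraries.

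Long non-coding hosts of small nucleolar RNAs were named by 7 members, and 0 of them had an unadjusted p under 0.05, with 2 positive and 5 negative differences. Snhg1, divergent from the amino acid transporter gene Slc3a2 at 118 bp, had 3.43, 3.53 and 3.75 RPKM with butyrate and 3.26, 3.37 and 3.17 RPKM with vehicle. The groups did not overlap, but the log2 difference was 0.10 ± 0.10 (SE, limma adjusted p = 0.83). Snhg10, divergent from Glrx5, had 3.77 ± 0.44 RPKM with butyrate and 4.22 ± 0.36 RPKM with vehicle (SD, n = 3 each). At Gas5, Snhg4 and Snhg12 the annotated transcript was another one, of Zbtb37, Mir1949 and Snora16a. Zfas1 had 2.71 ± 0.18 RPKM with butyrate and 2.92 ± 0.24 RPKM with vehicle, and Snhg8 had 3.07 ± 0.54 and 3.11 ± 0.12 RPKM in the same order.

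Of the long non-coding RNAs with a known role, 4 had a member region and all were stand-alone. The start site lay outside the region at Bvht and Firre, and Firre and Pvt1 rested on means of 18.7 and 22.0 reads. Bvht, known from heart development in mice, had 3.46, 3.67 and 2.34 RPKM with butyrate and 2.19, 2.66 and 2.26 RPKM with vehicle (log2 difference 0.29 ± 0.14 (SE), limma adjusted p = 0.70). Firre, which organises chromatin from the X chromosome, had 1.47 ± 0.30 RPKM with butyrate and 1.24 ± 0.27 RPKM with vehicle (SD, n = 3 each). Jpx, an activator of Xist in mouse cells, had 2.59 ± 0.14 RPKM with butyrate and 2.39 ± 0.45 RPKM with vehicle. The groups overlapped at all of these. Pvt1, a neighbour of Myc, had 3.49 RPKM in 1 butyrate library and 1.55 and 1.498 RPKM in the others, and 1.54, 2.34 and 2.02 RPKM with vehicle.

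Opposite-strand names were carried by 26 members, of which 15 were positive and 11 negative, and Med9os had the smallest p. It starts 67 bp from Med9, a subunit of the Mediator complex, and had 4.85, 4.99 and 4.63 RPKM with butyrate and 4.14, 3.75 and 4.20 RPKM with vehicle. The groups did not overlap, with a log2 difference of 0.21 ± 0.09 (SE, limma adjusted p = 0.65). Pseudogene names were carried by 8 members, of which 0 had an unadjusted p under 0.05; Ube2d-ps had the smallest, at 0.28. By class, an unadjusted p under 0.05 was found at 6 higher and 5 lower of 153 divergent members and at 2 higher and 2 lower of 60 antisense overlaps. It was found at 0 higher and 2 lower of 56 variants, 1 higher and 2 lower of 31 small RNAs and 2 higher and 1 lower of 69 stand-alone members. Over all regions tested the shares were 3.35% higher and 3.91% lower. The class counts are small, and no class was tested against another.

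The cell type of the samples was checked on coding genes. Regions within 5000 bp of the start were present for 13 of 14 markers of intestinal epithelium and 6 of 7 of ileal enterocytes. They were present for 1 of 12 immune markers (Ptprc, 0.558 to 1.35 RPKM with butyrate and 0.672 to 0.930 RPKM with vehicle), for 1 of 9 of fibroblasts and muscle (Vim, 0.656 to 1.03 RPKM with butyrate and 0.593 to 1.98 RPKM with vehicle), and for 0 of 4 of endothelium and 0 of 5 of glia and neurons. Reads in regions ranged from 1255251 to 1596958 in the butyrate libraries and from 1261630 to 1828591 in the vehicle libraries.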

How the data were processed

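H3K9ac was measured in 6 libraries, 3 per treatment. The submitters' processing notes name mm10 and, used by the authors, STAR, Picard, HOMER and edgeR, without version or role. How regions were called is not given in the sources used here. Per the file headers, the authors deposited RPKM values per library, mean RPKM and CPM per group (not used further), and their own log2 fold change, p-value and false discovery rate. RPKM times region length was a whole multiple of 1 step for 100% of values (tolerance 0.01 reads), which gave the reads in each region and scaled library totals of 17909553 to 22512631 with butyrate and 17846924 to 25805595 with vehicle. Column names gave the group of a library but no sample.

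Limma (3.58.1, R 4.3.3) was run on log2(RPKM + 1) with trend and robust empirical Bayes, two-sided, over regions with a mean of at least 1 RPKM, with Benjamini-Hochberg adjustment at 0.05. It left out 19 members. The fit was tested on simulated data. Alternatives were voom on recovered reads (all regions, or at least 25 mean reads), a pseudocount of 0.5, no filter or 2 RPKM, 2 scalings, a threshold of 0.1, splits by coding start and leaving out each library. Transcripts were placed with the RefSeq annotation of GRCm38.p6, and coordinates of regions are as deposited. The text names members called by any test, the 8 smallest p per direction, the 10 highest, 5 lowest and 3 longest, members of 3 name lists and the smallest p per class; any other is named as chosen after its values were seen. A result that this rule selects is not reported here. Members and lists were chosen with earlier results of these data known.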

Additional observations from a re-analysis of the deposited data

How the results depend on the processing

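No member was called at an adjusted p of 0.05 under any alternative run. At 0.1 limma on log2(RPKM + 1) called 0 members, while voom on all regions gave A230020J21Rik an adjusted p of 0.097. The count of members at an unadjusted p under 0.05 was 23 and ranged from 22 to 28 over the pseudocount, filter, scaling and voom alternatives and from 16 to 30 when 1 library was left out. The median log2 fold change of -0.0002 was -0.024 for members whose region holds no coding start and 0.0079 for those whose region holds one; the cause was not tested. For 60 named members, 771 alternative values held 0 calls and 38 changes of sign in 23 members, 0 of them among the 16 with the smallest p. Those 16 were picked for a small p in the same libraries, so their kept sign is no separate support. No paired analysis was possible because the columns carry no replicate numbers of the labels. Depth limits the weakest regions: 65 members had under 25 mean reads.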
